A study of Mus musculus with 87 samples.

Results

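Private ETn insertions were compared between 2 strain backgrounds in mice that all lack both copies of Chr4-cl. The animals were 18 KO/KO offspring of strain B6x129X1/SvJ (F2), called F2 KO here, and 8 KO/KO offspring of strain B6 from generations F3 and F4, called B6 KO. They were chosen by genotype, strain and the presence of sequenced ancestors in the labels, with the first library of each animal, and make up 26 of the 87 libraries of 76 animals and cell lines analysed here. The F2 KO animals were 8 offspring of mating 1 (parents KO and KO/WT), 4 of mating 2 and 4 of mating 3 (parents KO/WT), and 2 offspring of the mating 1 animals C6765 and C6733, called the second generation of mating 1. The B6 KO animals were 3 of F3 and 5 of F4. DNA came from tail in 15 F2 KO and 3 B6 KO animals, from ear in 3 and 3, and from blood in 2 B6 KO animals. The labels give no ages for these libraries. Per the study's methods, the deletion was made in B6 embryonic stem (ES) cells and passed on through mice made from heterozygous clones, and the labels tie no animal to a clone. The F2 families were also related to each other, since the parents of mating 3 came from matings 1 and 2. All the tests below therefore describe the families sequenced, and littermates were not independent of each other.

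Chr4-cl is a cluster of genes on chromosome 4 that encode KRAB zinc finger proteins, DNA-binding repressors that recruit heterochromatin to transposable elements. ETn elements are long terminal repeat (LTR) retrotransposons of the mouse. They encode no proteins of their own, are copied with proteins from related elements, and are a known source of new insertions in laboratory strains. Per the study's methods, reads paired with the related protein-coding ETnERV elements were counted together with them. ETn below therefore covers both kinds. An element copied in the germ line or the zygote can reach every cell of an animal, while one copied later in development is carried by some of its cells.

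Capture-seq finds such elements by pulling down DNA that matches the LTR ends and sequencing into the flanking DNA. The probe set, taken from the study's probe list, held 1274 ETn probes with 902 different sequences. The most frequent probe for each LTR end is shown because every locus below was found through sequence of this kind. The first was used 52 times and begins with TG, the first bases of the LTR, in capitals. The second was used 50 times and ends with CA, the last bases of the LTR, in capitals.
ETn LTR start: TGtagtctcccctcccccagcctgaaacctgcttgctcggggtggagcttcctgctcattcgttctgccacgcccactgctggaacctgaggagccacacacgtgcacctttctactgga
ETn LTR end: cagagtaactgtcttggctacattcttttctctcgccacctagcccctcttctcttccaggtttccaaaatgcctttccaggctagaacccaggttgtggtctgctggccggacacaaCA

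Depth was the total of ETn-paired reads per library, and counts were scaled to reads per 1000000 of these (RPM). A private insertion was a locus with at least 10 RPM in an animal, not called in any library of another animal, and with 0 reads in the first library of each sequenced ancestor. Further libraries of ancestors were held to the rule for other animals, and 1 private locus of F2 KO and 0 of B6 KO had a read in one. A locus that an animal passed on to a sequenced offspring was by this rule not private. Depth ran from 607211 to 843579 reads in F2 KO and from 657824 to 1046650 in B6 KO, so 10 RPM stood for 6.07 to 10.5 reads. F2 KO libraries were shallower (mean 714957.2 against 826506.1 reads, exact permutation test of the rank sum, two-sided, p = 0.0352, adjusted over 3 library measures 0.0352) and held fewer regions with 1 read (4400.3 against 6530.2, exact p = 0.0158, adjusted 0.0237). Leaving out any of B6 F3 replicates 1, 2 and 3 or F4 replicates 1 and 2 raised the adjusted p of the depth difference to 0.0737 to 0.0846, and leaving out F3 replicate 2 or 3 raised that of the 1-read regions to 0.0608 or 0.0517.

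The labels were checked against loci on chromosome 4 (mm9). The locus at 145019453 to 145021647 held 0 to 12.4 RPM in the 18 F2 KO libraries and 3 to 8.38 in the 8 B6 KO libraries, against 398 to 454 in 8 WT offspring of matings 2 and 3. A locus at 146815715 to 146816638 held 0 reads in all 26 KO libraries and 21.4 to 38.5 RPM in the WT animals. The locus at 147667616 to 147670848 went the other way, with 480 to 566 RPM in F2 KO, 448 to 519 in B6 KO and 0 to 8.62 in WT. The F2 KO and B6 KO libraries did not separate at any of these loci, while both stood apart from the WT animals. Loci on chromosome 6 at 42976044 to 42976429 and 58501749 to 58502206 also held 0 reads in all 26 KO libraries. In the WT animals they held 5.51 to 12.2 and 7.64 to 13.8 RPM. All these WT animals were F2 and none were B6, so deletion and strain cannot be told apart at such loci. Chromosome Y reads made up 0.142 to 0.165% of 13 libraries labelled male and 0.00482 to 0.0117% of the 9 labelled female. They made up only 0.00516 to 0.00677% in 4 F2 KO animals labelled male, which were the 3 ear animals C6923, C6924 and C6926 and the mating 2 animal H04408.

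The F2 KO libraries carried the ETn content of both parental strains. Loci called in every other B6 library, a measure of recovered B6 content, were called at 97.54% ± 0.383 (SD, n = 18) in F2 KO and 99.94% ± 0.0557 (n = 8) in B6 KO, and no F2 KO library reached the lowest B6 KO library (exact p = 1.28e-06, adjusted 3.84e-06). This order follows largely from how the loci were chosen, by being called in B6 libraries, so the p is not independent support. Each F2 KO animal also held 95 to 129 loci that were not private and not called in any of the 16 B6 libraries, of which 55 to 79 had at least 100 RPM. The B6 KO animals had 0 of these, which follows from how the loci were defined.

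Private insertions were found in 13 of 18 F2 KO animals (72.2%, exact 95% interval 46.5 to 90.3%) and in 1 of 8 B6 KO animals (12.5%, 0.316 to 52.7%). The F2 KO animals carried 576 in all, with a mean of 32 ± 31.2 (SD), a median of 26.5 and a range of 0 to 91. The B6 KO animals carried 1, a mean of 0.125 ± 0.354. An F2 KO animal had more insertions than a B6 KO animal in 71.5% of pairs and fewer in 3.47%, an effect of 68.1% (exact permutation test of the rank sum, two-sided, p = 0.00326, adjusted over 5 insertion tests 0.00815).

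In mating 1, the 5 tail libraries held 23 insertions in C6765, 87 in C6733, 0 in C7414, 30 in C7415 and 43 in C7417. The 3 ear libraries of the same mating held 0 in C6923, 0 in C6924 and 4 in C6926. All ear values lay below all tail values but that of C7414. In mating 2, C5734 had 0 insertions, C7250 had 54, H04408 had 20 and H032265 had 60. In mating 3, M05137 had 0, M05143 had 50, M05666 had 1 and M05668 had 91. Both families thus held animals without insertions beside littermates with at least 50. In the second generation of mating 1, H03384 had 59 and H03387 had 54, and neither lay outside the range of their parents, C6765 and C6733. Among B6 KO animals, the F3 animal T00431 had 1 insertion and the other 7 had 0.

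**Figure D1:**
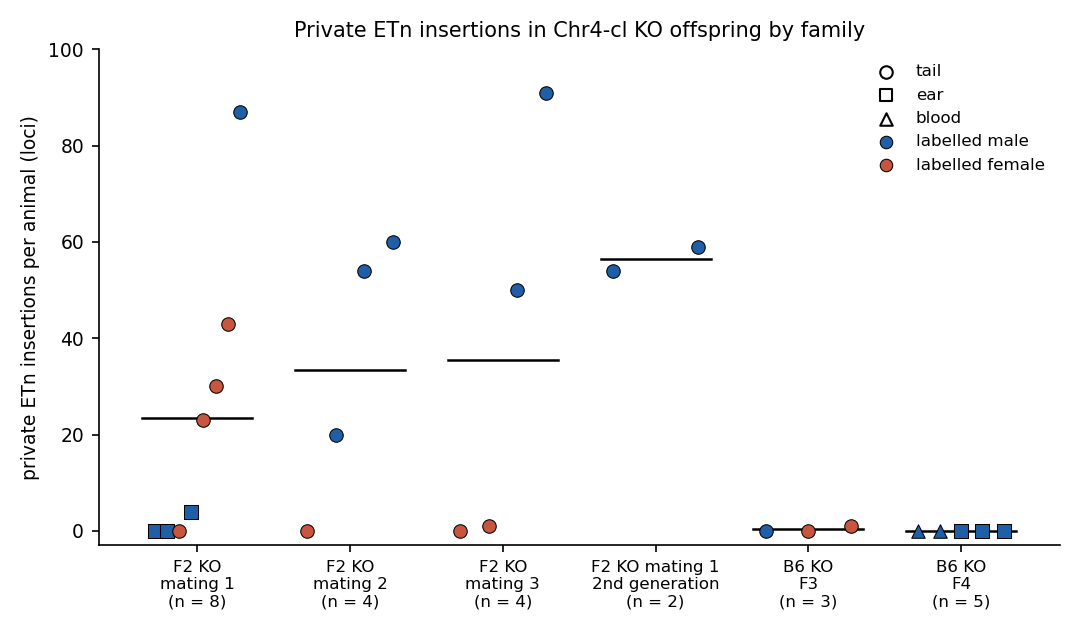
Private ETn insertions per animal (y axis, number of loci) for the F2 KO families and the B6 KO generations (x axis). Each point is 1 animal, its shape gives the tissue and its colour the labelled sex, and lines are means. The F2 KO animals spread from 0 to 91, while the B6 KO animals had 0 or 1.

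The summed RPM of the private insertions followed the counts. It was 556 ± 518 (SD, n = 18) in F2 KO and 3.799 ± 10.7 (n = 8) in B6 KO, with an effect of 68.8% (exact p = 0.0026, adjusted 0.00815). The highest sums were 1587.7 RPM in M05668, 1434.4 in C6733 and 1138.3 in H03387. Of the sum in H03387, 282.9 RPM came from 1 locus.

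Tissue differed between the strains, so tail was also compared alone. The 15 F2 KO tails carried 38.1 ± 30.6 insertions (median 43), and 4 of them had 0 or 1 while 11 had at least 20. The 3 B6 KO tails carried 0, 0 and 1. The effect was 71.1% (exact p = 0.0662, adjusted 0.0827), as large as over all tissues but not past the threshold of 0.05. With 15 and 3 animals and these ties, the smallest possible p is 0.00123. For the summed RPM in tail the means were 663 ± 501 and 10.1 ± 17.5, with an effect of 73.3% (exact p = 0.0527, adjusted 0.0827). In ear, 3 F2 KO animals had 0, 0 and 4 insertions and 3 B6 KO animals had 0 each (exact p = 1, the only value these ties allow). The exact interval around 0 of 3 reaches 70.8%. The strain difference in the mean was 36.5 insertions larger in tail than in ear (exact permutation of the tissue within strain, two-sided, p = 0.0827, 16320 rearrangements), a test chosen after the values were seen. The B6 KO tails were all F3 and the ears all F4, so tissue and generation cannot be told apart there. All F2 KO ears came from mating 1, while the tails came from every F2 family. The 3 F2 KO ear animals all had few chromosome Y reads, while 7 of the 15 tails were labelled male with chromosome Y reads. The permutation took no account of family or sex.

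The strain call rested on several features of the design. Only 3 B6 KO libraries were from tail, and without the 5 F4 animals, whose blood and ear libraries all had 0, the adjusted p was 0.112. With the mean of each family as the unit, 4 F2 families against 2 B6 generations, every F2 mean was higher, and the exact p was 0.133, the smallest this design allows. Library numbers ran from 1 to 16 in B6 KO and from 55 to 101 in F2 KO, so library number and strain cannot be told apart.

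The tail libraries of F2 KO animals differed by labelled sex, a comparison chosen after the values were seen. The 8 animals labelled male had 20 to 91 insertions (59.4 ± 22.2, SD), and the 7 labelled female had 0 to 43 (13.9 ± 18). The effect was 89.3% (exact permutation test of the rank sum, two-sided, p = 0.00186). The male-labelled animal with 20 insertions was H04408, the tail library in which chromosome Y reads did not match the label. Without H04408, all 7 males had 50 to 91 and did not overlap the females (exact p = 5.83e-04, the smallest possible). The order held within each mating that had both sexes. In mating 1 the male had 87 and the 4 females at most 43, in mating 2 the males with chromosome Y reads had 54 and 60 and the female 0, and in mating 3 the males had 50 and 91 and the females 0 and 1.

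The WT and KO/WT littermates of these animals, measured the same way in tail, did not show this order. The 7 males had 0 to 30 insertions and the 10 females 0 to 413, with medians of 18 and 9 (exact p = 0.83). All 17 littermates had a mean of 38.8 ± 97.8 (SD) and a median of 17. The highest female was C5733, and without that animal the 16 littermates had 15.4 ± 16.9. The difference between KO and littermates in the effect of sex was not tested. Depth ran from 607211 to 812911 reads in the F2 KO males and from 663371 to 843579 in the females. Thinned to the same depth, the sex difference kept an effect of 89.3% (exact p = 0.00186). Counted at 10 or more reads in place of 10 RPM, it had an effect of 51.8% (exact p = 0.0984).

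**Figure D2:**
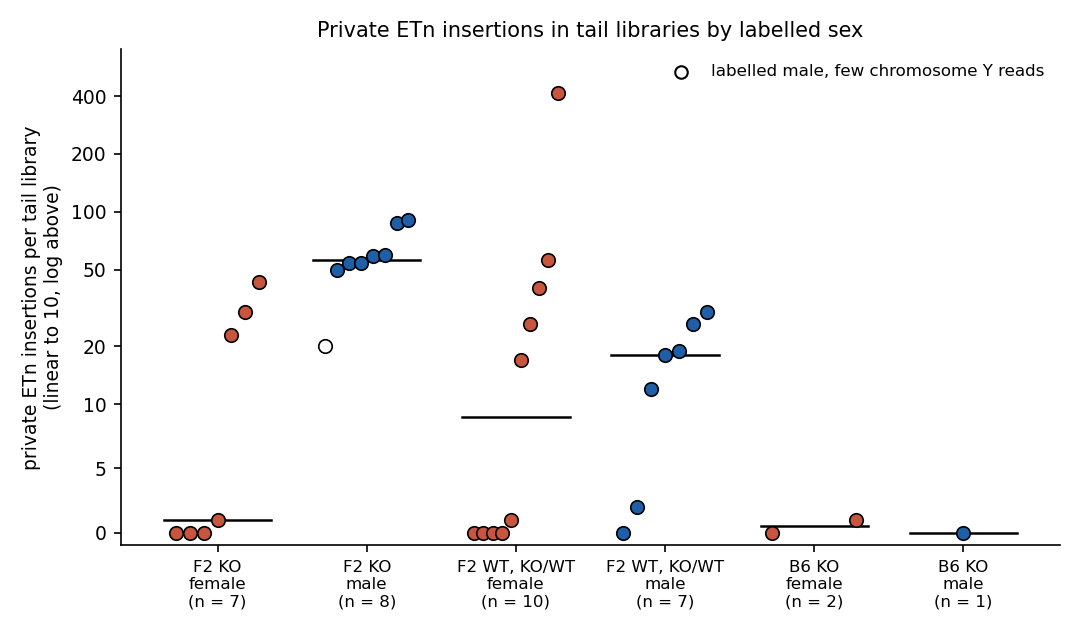
Private ETn insertions per tail library (y axis, linear to 10 and logarithmic above) by genotype, strain and labelled sex (x axis). Each point is 1 animal and lines are medians, and the open point is H04408, labelled male with few chromosome Y reads. The 7 other F2 KO males had 50 to 91 insertions and the F2 KO females 0 to 43, while the sexes overlapped in the littermates.

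Strains were also compared within each labelled sex, where few B6 KO animals remained. The B6 KO tails came from 1 male with 0 insertions and 2 females with 0 and 1. Among labelled females of all tissues, which were all tails, 7 F2 KO animals had a mean of 13.9 and 2 B6 KO animals 0.5, with an effect of 28.6% (exact p = 0.639). With 7 against 2 values, the smallest two-sided p this test can give is 0.0278 with these ties and 0.0556 without. With so few animals, a p that misses the threshold says little here. Among labelled males, 11 F2 KO animals had a mean of 43.6 and 6 B6 KO animals 0, with an effect of 81.8% (exact p = 0.00396, adjusted 0.0103). These B6 KO males were 1 tail, 2 blood and 3 ear libraries, so tissue differed between the groups, and 4 of the 11 F2 KO males (C6923, C6924, C6926 and H04408) had few chromosome Y reads. In tails alone, 8 labelled F2 KO males had a mean of 59.4 against 0 in the 1 B6 KO male, with an effect of 100% (exact p = 0.222, the smallest this design allows, adjusted 0.278).

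Single private insertions held few reads. Over the 576 of F2 KO the median was 13.7 RPM, with quartiles of 11.6 and 18.8, from a median of 10 reads. Below 20 RPM lay 458 of them, between 20 and 50 RPM lay 116, and only 2 lay above. The threshold sets the lowest possible value, and at 5 RPM the F2 KO animals had 1633 insertions and the B6 KO animals 3. In the 12 animals with at least 4 insertions, the median per animal was 12.4 to 16.0 RPM. That was 2.85 to 3.71% of the median at the 2345 loci called in every B6 library, which was 426.3 to 436.1 RPM. Inherited loci with at least 100 RPM that were not called in B6 had medians of 198 to 253 RPM.

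The insertions were seldom shared even as single reads. Of the 576, 557 (96.7%) had no read in any library of another animal. The rule on ancestors removed 12 of 588 candidate loci in F2 KO but 14 of 15 in B6 KO, 7 of them in T00460 and 5 in T09694. With ancestors held only to the rule for other animals, the means were 32.7 and 1.88, and the effect was 57.6% (exact p = 0.0182, adjusted 0.0454). Under that looser rule 15 of 18 F2 KO animals (83.3%, exact 95% interval 58.6 to 96.4%) and 5 of 8 B6 KO animals (62.5%, 24.5 to 91.5%) had a private locus, so the share of B6 KO animals with any depended on the rule. Sequenced ancestors numbered 2 in matings 1 and 2, 4 in the second generation and in F3, 6 in mating 3 and 7 in F4, so the rule was stricter where more were sequenced. For F3 the labels list 2 founder matings without naming the parents of each animal. All 4 founders were therefore used, and some may not be ancestors of a given animal. In F3 the rule removed 8 of 9 candidate loci.

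**Figure D3:**
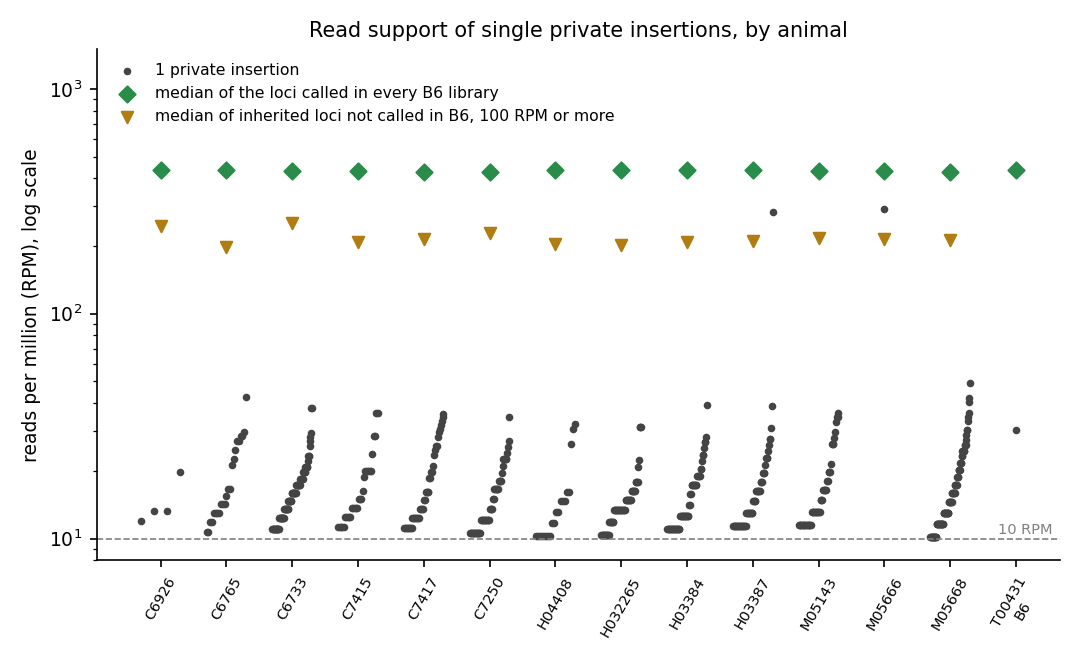
Read support of private insertions in RPM (y axis, log scale) for the 13 F2 KO animals and the B6 KO animal that had any (x axis). Dots are single insertions, diamonds the median over 2345 loci called in every B6 library, and the dashed line the threshold of 10 RPM. Triangles are the median of inherited loci not called in B6 with at least 100 RPM. All dots but 2 lie at or below 49.3 RPM.

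The 2 exceptions reached the level of inherited loci. M05666 had a single private insertion, on chromosome 8, 64106528 to 64107341, with 293.1 RPM from 201 reads and no read in another animal. It lies in an intron of Palld, which encodes the actin scaffold protein palladin. H03387 had the other, on chromosome 6 at 98344971 to 98345952, with 282.9 RPM from 174 reads. It lies between genes, 52223 bp from Gm765, and the repeat library of the same tail held 298 RPM there. A littermate, H03384, had 1 read at this locus, a blood library of C6733, a parent labelled male, had 2, and a repeat library of C5734 had 1. The first libraries of both parents had 0, as the rule requires. M05666 is thus the one animal in which the whole private signal lay at 1 strong locus.

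The next values were much lower. M05668 held 49.25 RPM on chromosome 7 at 59426435 to 59426897, between genes and 165047 bp from Svip, the nearest protein-coding gene. C6765 held 42.68 RPM on chromosome 2, from 35636453 to 35637022. This intron belongs to Ttll11, which encodes a tubulin polyglutamylase. M05668 held 2 more, 42.01 RPM on chromosome 7 at 126339973 to 126340393, 12085 bp from the receptor gene Gpr139, and 40.56 RPM on chromosome 5 at 135620056 to 135620708, 4819 bp from Tbl2. These 4 loci had no read in any other animal. H03384 held 39.36 RPM on chromosome 8, from 117759977 to 117760379, within an intron of the oxidoreductase gene Wwox. H03387 held 39.03 RPM on chromosome 19 at 41042055 to 41042663, over a noncoding exon stretch of Blnk, an adaptor of B cell receptor signalling. The only private insertion of a B6 KO animal, in T00431, had 30.39 RPM from 26 reads on chromosome 15 at 21562452 to 21562988, between genes and 43164 bp from the cadherin gene Cdh12. Of the 576 F2 KO insertions, 33 had a higher RPM.

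The reference sequence (mm9, plus strand) at the middle of 3 of these read clusters is given to show the DNA that carries no ETn in the reference, for the 2 strongest insertions and the B6 KO insertion. A read cluster lies beside an insertion and its middle is not the insertion point, so no base is in capitals.
M05666, chr8:64106835-64107034: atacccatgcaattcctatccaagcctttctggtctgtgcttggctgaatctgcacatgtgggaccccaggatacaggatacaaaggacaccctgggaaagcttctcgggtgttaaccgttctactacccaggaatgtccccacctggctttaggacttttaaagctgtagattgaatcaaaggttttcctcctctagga
H03387, chr6:98345362-98345561: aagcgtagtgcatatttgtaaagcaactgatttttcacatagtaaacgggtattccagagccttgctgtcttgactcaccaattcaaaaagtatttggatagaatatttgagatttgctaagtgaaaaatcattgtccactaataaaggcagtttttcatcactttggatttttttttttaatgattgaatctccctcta
T00431, chr15:21562620-21562819: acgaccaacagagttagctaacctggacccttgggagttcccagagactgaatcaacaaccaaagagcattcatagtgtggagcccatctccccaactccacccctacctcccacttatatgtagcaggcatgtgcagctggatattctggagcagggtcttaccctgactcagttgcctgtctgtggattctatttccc
No ETn probe matched within 1000 bp of these 3 clusters in a blastn search. In the same search a match to an ETn probe lay near 99.5% of the loci found in all B6 libraries (2345) and near 2 of the 576 private insertions of F2 KO (0.347%). A locus beside a reference element that other animals share is called in them and cannot be private. This contrast thus follows largely from how the loci were chosen. The private clusters were also narrow, with a median width of 439 bp against 3009 bp at the B6 loci. A B6 locus joined the called regions of many libraries with more reads, so these widths are not like for like.

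A larger share of the private insertions than of the fixed elements lay in genes. Of the 574 on chromosomes 1 to 19 and X, 290 (50.5%) had their middle in a gene, against 20.8% of those called in every B6 library. The share was 26.7% of 86 inherited loci not called in B6 that had at least 100 RPM in at least 2 F2 KO animals. Genes cover 41.3% of these chromosomes. In the 11 animals with at least 20 insertions the share was 45.8 to 57.4%, and each of them lay above the share of the B6 loci. Exons held the middle of 4.88% and cover 3.40% of the genome. These shares are descriptions, since insertions of 1 animal are not replicates.

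**Figure D4:**
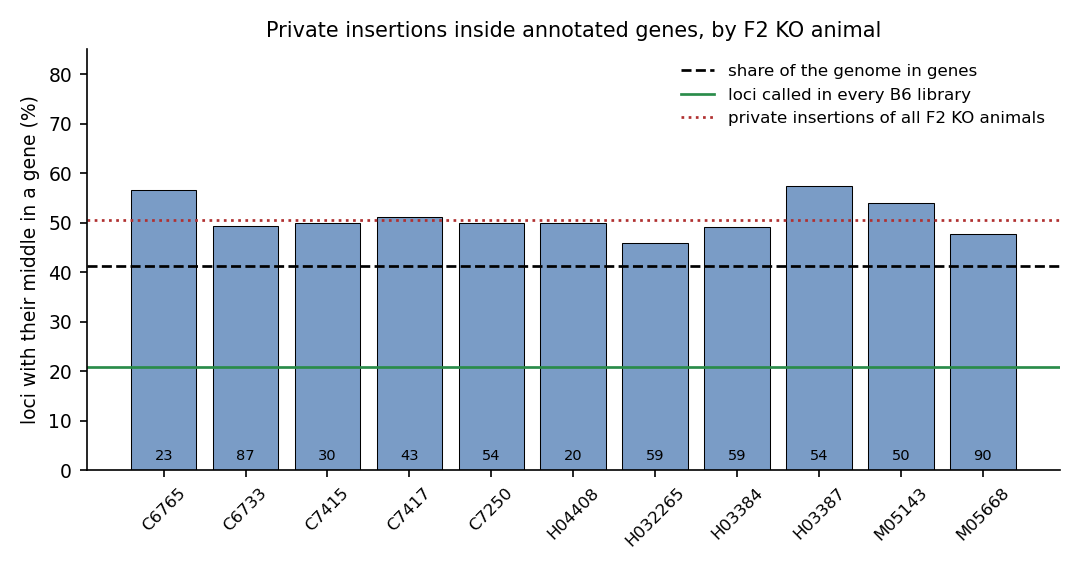
Share of private insertions with their middle in an annotated gene (y axis, %) for the 11 F2 KO animals with at least 20 insertions (x axis), with the number of insertions placed on chromosomes 1 to 19 and X at the foot of each bar. Lines give the share of the genome in genes (41.3%), of the B6 loci (20.8%) and of all F2 KO private insertions (50.5%). All bars stand above the first of these lines.

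Read clusters of 23 of the 576 private insertions overlapped a coding exon. The share that clusters of this width would overlap across the genome was not measured. A cluster lies beside its insertion, so an overlap does not place the insertion in the exon. The strongest of these clusters overlapped Aff3 (C7417, 28.39 RPM), Krt78, a keratin gene (C6733, 28.29 RPM), and Cct7, a chaperonin subunit gene (C7250, 22.59 RPM). Protein-coding genes overlapped by a private insertion numbered 274, with a median length of 105865.5 bp against 15427.5 bp over 22350 such genes. Only 8 of the 274 had insertions in at least 2 animals, and these had a median length of 522506.5 bp. By summed RPM the first was Palld, with the 293.1 RPM of M05666 and 13.74 RPM in C7415. The others with the highest sums were Fgfr2, a fibroblast growth factor receptor (C6733, H032265, H03387 and M05668, 10.4 to 22.77 RPM), 1700112E06Rik (H03387 and M05668), Gm20388 (C7250, H03387 and M05143) and Mll3, a histone methyltransferase gene (C6765 and C7415). In this annotation the Fgfr2 model spans 3009069 bp and that of Gm20388 4434882 bp. The Fgfr2 insertions lay in introns of that long model, from 137604098 to 139357519 on chromosome 7. Their distance to the coding exons of the receptor was not measured. The other 266 genes were each hit in 1 animal. Just 1 pair of insertions from different animals lay within 10000 bp.

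Every autosome and the X chromosome held private insertions. Chromosome 19 had 4.34% of them with 2.27% of the genome, the highest density at 4.30 per 10 Mb. Chromosome X had 1.91% with 6.34% of the genome, the lowest at 0.679 per 10 Mb, while 6.14% of the B6 loci lay there. The X share was 1.76% of 455 insertions in the 7 F2 KO tails labelled male with chromosome Y reads, and 2.56% of 117 in the other 8 tails. Base composition differed little, with a GC content of 43.5% ± 5.45 (SD over loci) in 1000 bp windows against 42.9% ± 5.12 at the B6 loci and 41.8% ± 5.84 genome-wide.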

How the data were processed

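Per the labels, genomic DNA was enriched with RNA probes for ETn LTRs, and the submitters' processing notes name Bowtie, SAMtools, bedtools and mm9, with versions not given in the sources used here. Per the study's methods the authors mapped mates separately, removed duplicates, kept uniquely mapped reads with an ETn mate and joined reads within 1000 bp. The deposited values are counts of such reads per region of 1 library, not normalized or pooled. The authors also removed regions near annotated repeats, which was not done here.

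Reads were divided by the library total and scaled to 1000000 (RPM). Regions with at least 10 RPM in any of the 87 libraries were joined within 1000 bp into 5018 loci. An ancestor named with a shortened number in a label was read as the parent of that mating. Counts per animal were compared by an exact, two-sided permutation test of rank sums (midranks for ties), adjusted by Benjamini-Hochberg, in python 3.11.15 with numpy 2.4.6. The caller and the test were tested on simulated data. Probes were searched with blastn 2.17.0 (word size 11, e-value 1e-05). Genes came from GENCODE M1, and 0 regions ran past an NCBIM37 chromosome end. Named loci were the 8 with the highest RPM in F2 KO and all of B6 KO, and up to 5 genes hit in at least 2 animals. Coding-exon genes were named after their values were seen. The members and lists were chosen with earlier results of these data known. P-values and intervals cover counting error and spread between these animals only, and reads carry no molecular identifiers.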

Additional observations from a re-analysis of the deposited data

Results flagged for a closer look

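Of 24 combinations of a group and a measure, 1 held an animal far from the others, where chance alone gives about 1.2. It was the depth of C6765, at 843579 reads the deepest of the 5 mating 1 tails, which otherwise ran from 800823 to 812911.

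Libraries of other tissues of the F2 KO animal C6733 entered no comparison. Testis had 4 private insertions, blood 5, kidney 5 and the adult tail 37, where the B6 WT animals had at most 3. Brain, with 0, and a second testes library, with 2, were not above that level. The B6 WT libraries were from blood and differed in strain and genotype from C6733, so small differences from that level carry little meaning. Of the 87 insertions of the first tail library, 20 had a read in the adult tail and 0 in any of the other tissues. In the other direction, 14 of the 37 adult tail insertions and 1 of the 5 blood insertions had a read in the first tail library.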

How the results depend on the processing

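No paired analysis was possible because no label gives a replicate number that links an F2 KO to a B6 KO animal. Each insertion comparison was repeated with 5 or 20 RPM, at least 10 reads, thinned libraries, stricter or looser rules on other animals and ancestors, other joining distances, and loci near probe matches or B6 loci left out. F2 KO stayed higher in all 25 alternatives over all tissues, and 21 kept the adjusted p below 0.05. The call was lost with family means (effect 100%, adjusted p = 0.167 for counts and RPM), without B6 F4 (61.1% and, for RPM, 63.0%, adjusted p = 0.112), with library numbers up to 64 (55.0%, adjusted p = 0.0874) and, an alternative chosen after seeing the data, in labelled females alone (28.6% and 35.7%, adjusted p = 0.639). The smallest p that untied values allow is 0.133 for family means, so that alternative shows nothing about stability. The females, 7 against 2, allow 0.0556 untied and 0.0278 with the ties of the counts, and so few animals say little about stability. Leaving out 1 animal changed no call, with effects of 66.2 to 72.8% for counts and 66.9 to 73.5% for RPM. In tail no alternative made the count pass. The summed RPM passed one-sided (73.3%, adjusted p = 0.0408), and leaving out 1 animal gave 66.7 to 80.0% and 70.0 to 81.0%. Ear effects ran from 0% at 20 RPM to 77.8% at 5 RPM, and from 0 to 50% without 1 animal. The sex difference in F2 KO tails was lost at 10 or more reads (51.8%), and without 1 animal it was 87.5 to 100%. The median RPM of an insertion was 8.23 at 5 RPM, 26.2 at 20 RPM, 17.9 at 10 or more reads and 15.2 after thinning, and the share in genes stayed at 49.0 to 51.1%. Leaving out 1 animal gave effects of -69.8 to -46.0% for depth and -67.6 to -54.0% for 1-read regions. Of 286 counts of single animals 28 moved by more than the SD of their group, 13 of them at 5 RPM and 7 at 20 RPM.

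With a median of 10 reads behind an insertion, the number per animal depends on the threshold, and an insertion in few cells can be missed at this depth.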

Other observations

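Repeat libraries of the same tail DNA gave close numbers. C7415 had 30 insertions in the first library and 26 in the repeat, and all 30 had a read in the repeat. H03387 had 54 and 61, and 53 of the 54 had a read in the repeat. C5734 had 0 in both.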
